A study of Mus musculus with 5 samples.

Results

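Of 16998 windows listed on chromosomes other than that of the Cebpa promoter, and outside a block of chromosome 10, 351 held 13 reads or more in at least 2 of 4 4C-seq libraries. These recurrent trans windows were selected on those read counts, so their number, the libraries that share them and their read levels are given as a description. Windows are 2000 bp long and lie on chromosomes 1 to 19 except chromosome 7. The block left out spans positions 117350001 to 117800000 of chromosome 10 and holds 133 listed windows. Across the genome, 29870 windows were listed in at least 1 library. The 351 windows are 2.37% of the trans windows with 13 reads or more in any library (95% Wilson interval 2.14% to 2.63%). A further 14459 windows reached 13 reads in 1 library alone and serve below as the comparison, and 2188 stayed under 13 reads in every library.

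The libraries came from 3T3-L1, a cell line from mouse embryo, with 2 replicates of preadipocytes (3T3-L1-PRE) and 2 of adipocytes at day 7 after induction (3T3-L1-AD). Induction was with MDI, a cocktail of IBMX, dexamethasone and insulin, followed by insulin alone. The replicates are abbreviated PRE1, PRE2, AD1 and AD2. Titles of the samples mention mRNA, but the molecule is genomic DNA, and 4C-seq measures no transcripts, so the labelled cell type could not be checked against marker genes. A cell line with 2 libraries per state limits what can be said of adipocytes in general, and nothing states that the replicates were separate cultures, so p-values measure only the spread between these libraries.

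In 4C-seq, crosslinked chromatin is cut with a first enzyme, here DpnII, and ligated, so that fragments close together in the nucleus are joined. After a second cut with NlaIII and circularization, primers at a chosen viewpoint amplify whatever was joined to it. Cebpa encodes a transcription factor that drives adipocyte differentiation together with PPARG. Contacts of a promoter with its own chromosome far outnumber those with any single place on another chromosome. A trans ligation seen in a single library can therefore stem from very few joined molecules, multiplied by PCR, and recurrence between libraries is the usual first question asked of it.

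Listed windows held 9453610 reads in PRE1, 16888137 in PRE2, 6535263 in AD1 and 10173531 in AD2. No listed count was under 13, 11, 2 and 2 reads in the same order, so a window given as 0 reads may hold fewer reads than those. Read counts of single windows are given without scaling to the listed totals, so depth can form part of a difference between libraries. Of 2761 trans windows with 13 reads or more in PRE1, 190 were recurrent (6.88%, 95% Wilson interval 6.00% to 7.89%). In PRE2 it was 161 of 9022 (1.78%, 1.53% to 2.08%). The shares were 15.4% in AD1 (184 of 1195, 13.5% to 17.6%) and 8.94% in AD2 (198 of 2214, 7.82% to 10.2%). Such intervals cover counting error only, because the reads are PCR copies that carry no molecular identifier. The order of the shares ran opposite to the order of the window numbers, with PRE2 longest and least recurrent and AD1 shortest and most recurrent.

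Recurrent windows took 10.0% of the trans reads in PRE1, 1.26% in PRE2, 16.7% in AD1 and 9.74% in AD2. AD1 was highest and PRE2 far below the other libraries, while PRE1 lay just above AD2, so the states overlapped. Of all listed reads, cis included, the shares were 1.82%, 0.226%, 3.99% and 2.39%, and both 3T3-L1-AD libraries were above both 3T3-L1-PRE libraries. The mean of the 3T3-L1-PRE libraries was 5.64% and that of the 3T3-L1-AD libraries 13.2%, a difference of 7.56 percentage points. It is given without a test, because the windows were selected on the same reads. With a library left out of both the choice of windows and the mean, the difference was 6.56 percentage points without PRE1, 5.34 without PRE2, 2.72 without AD1 and 10.3 without AD2. Leaving it out of the choice of windows alone gave 6.76, 7.57, -0.238 and 3.85 in the same order. The share of the library left out is then lowered by construction.

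A pair of libraries was the usual case: 324 of the 351 windows (92.3%) reached 13 reads in 2 libraries, 23 in 3 libraries and 4 in all 4. Leaving out PRE1, PRE2, AD1 or AD2 left 173, 213, 193 and 177 recurrent windows, and a minimum of 50 reads left 210. Of the 324, 166 (51.2%) were shared by the replicates of a state and 158 by libraries of different states. AD1 and AD2 alone shared 87 windows, and PRE1 and PRE2 alone shared 79. Across the states, PRE1 shared 48 windows with AD1 alone and 51 with AD2 alone, and PRE2 shared 23 with AD1 alone and 36 with AD2 alone. In number, each pair of replicates thus shared more windows than any pair across states, but the lists they were drawn from differ in length.

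Counting windows of 3 and 4 libraries too, AD1 and AD2 shared 110 windows, which is 9.21% of the AD1 list and 4.97% of the AD2 list. PRE1 and PRE2 shared 87, which is 3.15% of the PRE1 list and 0.964% of the PRE2 list. PRE1 and AD1 shared 59, or 2.14% and 4.94% of their lists, and PRE1 and AD2 shared 60, or 2.17% and 2.71%. PRE2 and AD1 shared 45, or 0.499% and 3.77% of their lists, and PRE2 and AD2 shared 56, or 0.621% and 2.53%. AD1 and AD2 each had the largest share of their own list in common with the other, and so did PRE1 and PRE2. The overlap of the 3T3-L1-PRE replicates was a smaller share of the PRE2 list than any other pair's share of an AD1 or AD2 list. Such a share can also grow with the length of the other list, which was longest for PRE2. Taken as shares of the other list, AD1 and AD2 again overlapped most with each other. PRE1 then held 4.94% of the AD1 list against 0.964% of the PRE2 list. PRE2 held 3.77% of the AD1 list against 3.15% of the PRE1 list.

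Reads in shared windows were unequal, in counts not scaled to depth. The median ratio of the larger to the smaller count was 2.67 between PRE1 and AD2 and 3.18 between PRE1 and AD1, against 4.29 between AD1 and AD2, 5.61 between PRE1 and PRE2, 7.32 between PRE2 and AD1 and 11 between PRE2 and AD2. Across the shared windows, Pearson's r of log2 reads was 0.714 for PRE1 and AD1 (59 windows), 0.546 for PRE1 and AD2 (60 windows), 0.49 for PRE2 and AD1 (45 windows) and 0.451 for AD1 and AD2 (110 windows). It was 0.262 for PRE1 and PRE2 (87 windows) and -0.128 for PRE2 and AD2 (56 windows). These windows share their libraries, depth and selection and are not independent replicates. The set of windows differs from pair to pair, touching windows can enter with the same count, and differences between these values were not tested.

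The lower of the counts in a window shared by 2 libraries, or the next to highest count in the others, had a median of 96 reads. It was under 100 in 182 windows, from 100 to under 1000 in 139 and 1000 or more in 30. At the edge of the rule, 29 windows had a next to highest count of 13 to 15, with a median highest count of 60 reads. Just outside it, 37 windows had 10 to 12 reads in that place and a median highest count of 86. In 23 of these 37 the low count came from a 3T3-L1-AD library. The files list no count that low for PRE1.

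The median of the windows with 13 reads or more was 450 reads for recurrent windows and 255 for windows of 1 library in PRE1. In AD2 it was 195 against 79.5. In PRE2 recurrent windows were lower, with 158 against 190, and in AD1 with 252.5 against 315. A higher read level therefore went with recurrence in 1 library of each state and not in the other.

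The share of windows that recurred was also taken by read level. In PRE1 it was 5.55% at 13 to 99 reads, 6.14% at 100 to under 1000 and 10.3% at 1000 or more. In PRE2 it was 1.99%, 1.81% and 0.467%, in AD1 18.5%, 13.5% and 14.1%, and in AD2 7.30%, 10.6% and 11%. Recurrence in the other replicate of the same state, at the same levels, was 2.41%, 1.97% and 6.69% in PRE1 and 0.863%, 1.16% and 0% in PRE2. It was 15.8%, 9.11% and 2.34% in AD1 and 4.04%, 7.10% and 4.91% in AD2, so it fell with the read level in AD1 and in no other library at each step. AD1 and AD2 met mostly in windows that AD1 read weakly: their windows shared by no other library had a median of 38 reads in AD1 and 114 in AD2.

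Windows shared by PRE1 and PRE2 alone had medians of 1146 and 217 reads. Those shared by PRE1 and AD1 alone had medians of 499 and 1306.5 reads, and those of PRE2 and AD1 alone 192 and 1143. Among windows of 2 libraries, PRE1 was therefore read most deeply in those common to the 3T3-L1-PRE replicates, and AD1 in those common to it and a 3T3-L1-PRE library.

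All 4 libraries shared 4 windows. The window at chr2:98666001-98668000 held 38 reads in PRE1, 80 in PRE2, 22 in AD1 and 67 in AD2. It was the most even of the 4, and the states overlapped. It covers an exon of Gm10800, a predicted gene, and 60.3% of its bases are masked as repeats. The window at chr2:174098001-174100000, over an exon of Stx16, which encodes a syntaxin of the Golgi, held 15, 16, 304 and 1613 reads in the same order. The window at chr6:71042001-71044000, between genes with Foxi3 as the nearest coding gene at 80935 bp, held 13, 67, 845 and 5255 reads. In both, each 3T3-L1-AD library was above each 3T3-L1-PRE library, with AD2 highest.

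The remaining window of the 4, chr4:40660001-40662000 between genes, 20382 bp from Aptx, held 70 reads in PRE1, 18 in PRE2, 19 in AD1 and 899 in AD2. Aptx encodes a DNA repair protein. AD1 fell between the 3T3-L1-PRE replicates here, so the states overlapped.

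Among the 23 windows of 3 libraries, 19 included both 3T3-L1-AD libraries, 15 of them with PRE2 and 4 with PRE1. In the 15 shared with PRE2, AD2 was highest in 11 and PRE2 lowest in 11. In the 8 of these with 1000 reads or more in AD2, AD1 held 6.28% to 36.2% of the AD2 count and PRE2 0.73% to 6.92%. These 8 were picked for their AD2 count, so its rank in them is no finding.

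An exon of Gcfc2 on chromosome 6 (window start 81930001) held 0 reads in PRE1, 293 in PRE2, 875 in AD1 and 4232 in AD2. The window on chromosome 15 at start 74426001, between genes with Adgrb1 nearest at 88195 bp, held 0, 184, 1625 and 5865 reads. That on chromosome 3 at start 110182001, with Ntng1 nearest at 37990 bp, held 0, 82, 510 and 2633 reads. Adgrb1 encodes an adhesion receptor and Ntng1 an axon guidance protein, both known mainly from neurons. AD2 was highest in all of these, and each 3T3-L1-AD library exceeded each 3T3-L1-PRE library.

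Other windows shared by these libraries lay in the Asb16 intron on chromosome 11 (start 102270001), with 0, 41, 99 and 1332 reads in PRE1, PRE2, AD1 and AD2. A window of chromosome 4 (start 9136001), 131293 bp from Clvs1, the nearest coding gene, held 0, 53, 936 and 2586 reads. In Cacna1a on chromosome 8 (start 84636001), which encodes a calcium channel subunit, the counts were 0, 46, 35 and 638. In the last of these, PRE2 exceeded AD1 and the states overlapped in unscaled reads. Relative to the listed reads (16888137 in PRE2 and 6535263 in AD1), AD1 was above PRE2 and the states did not overlap.

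The 4 windows shared by PRE1 with both 3T3-L1-AD libraries included an intron of Magi2, a scaffold protein gene, on chromosome 5 (start 19452001), with 467, 0, 5231 and 1805 reads in PRE1, PRE2, AD1 and AD2. They also included adjacent windows in an intron of Shisa9 on chromosome 16. The first, at start 12104001, held 43, 0, 50 and 1328 reads, and the second, at start 12106001, held 40, 0, 45 and 1312. Both PRE1 and AD1 were low in Shisa9 and AD2 was high, whereas in Magi2 AD1 was highest.

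Of the windows shared by PRE1, PRE2 and AD1, the one in an intron of Ror1 on chromosome 4 (start 100182001) held 1409, 171, 8353 and 0 reads. Ror1 encodes a receptor for Wnt ligands. In an intron of Asb8 on chromosome 15 (start 98160001) the counts were 433, 210, 3763 and 0, and at Gm17018 on chromosome 19 (start 45576001) they were 415, 453, 743 and 0. AD2 listed none of these 3 windows, and AD1 was highest in each, so the states overlapped.

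Windows shared by 2 libraries alone and read deeply in both lay in varied places. For AD1 and AD2 the window with the highest lower count outside chromosome 18 was chr5:19200001-19202000, also with Magi2 as the nearest gene (25036 bp away), at 4611 and 2419 reads. For PRE1 and PRE2 it was on chromosome 6 (start 45026001), 31357 bp from Cntnap2, a neuronal adhesion gene, with 4683 and 692 reads. The other state listed no read in either, and the choice of windows shared by a pair alone holds it under 13.

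Across the states, counts could be higher still. A window 3477 bp from Gstp3 on chromosome 19 (start 4052001) held 5765 reads in PRE1 and 13745 in AD2, and one 164 bp from Kcnn3 on chromosome 3 (start 89518001) held 4220 and 5899. PRE1 and AD1 shared an exon of Nudt9 on chromosome 5 (start 104058001), with 2048 and 4755 reads, and a window 48058 bp from Zic1 on chromosome 9 (start 91308001), with 1813 and 2430. The other replicate of either state listed no read in these 4 windows.

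PRE2 and AD2 shared a window in an intron of Plxna4 on chromosome 6 (start 32454001), with 1046 and 2236 reads, and an exon of Eif3b on chromosome 5 (start 140418001), with 829 and 1874. Eif3b encodes a subunit of a translation initiation factor. PRE2 and AD1 shared a window 13184 bp from Letm1 on chromosome 5 (start 33796001), with 538 and 1016 reads, and an intron of Ccdc65 on chromosome 15 (start 98714001), with 871 and 452. PRE2 was the lower library in all but Ccdc65 in unscaled reads, and in Ccdc65 too relative to the listed reads of each library.

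Recurrent windows lay on all 18 chromosomes considered. Chromosome 6 had most, with 40, followed by chromosome 2 with 34. Per length, chromosome 19 was highest, with 39.5 windows per 100 Mb of reference sequence (23 windows), then chromosome 6 with 27.3 and chromosome 16 with 22.1. Chromosome 1 was lowest, with 6.26 per 100 Mb (12 windows), and all chromosomes together had 15.6. Windows of 1 library were also densest on chromosome 19, at 1170 per 100 Mb against 642 for all, and among the sparsest on chromosome 1, at 504. Recurrent windows as a share of windows with 13 reads or more ranged from 1.23% on chromosome 1 to 3.72% on chromosome 16, around the 2.37% of all.

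Clusters were few. The 351 windows formed 330 stretches of touching windows, of which 309 were single windows and 21 were pairs, and none was longer. Joining windows up to 10 kb apart gave 328 stretches, up to 100 kb 320 and up to 1 Mb 259. Of 2270 bins of 1 Mb, 293 held a recurrent stretch, 32 held 2 and 2 bins held more.

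The longest cluster lay at Cwc22 on chromosome 2, a gene of a splicing factor known to vary in copy number among mouse strains. Its bin, 77 to 78 Mb, held 4 recurrent windows, all within Cwc22, and 18 windows of 1 library, where the median bin held 6 and the fullest 27. In 21 bins the number of windows of 1 library was higher still. The window at start 77880001 held 0, 386, 33 and 0 reads in PRE1, PRE2, AD1 and AD2. At start 77890001 the counts were 0, 1185, 0 and 34, at 77900001 61, 32, 0 and 0, and at 77932001 36, 52, 0 and 0. PRE2 read all 4 windows, and the library that shared them with it was AD1, AD2 or PRE1. The other bin with more than 2 stretches, 165 to 166 Mb of chromosome 2, held 3 recurrent windows and 9 of 1 library.

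Touching windows mostly repeated each other's count. In 14 of the 21 touching pairs the count was the same in both windows in every library that both listed, and in 17 it differed by at most 2%. The DpnII site nearest to the shared border lay at a median distance of 57 bases in these 17, and within 150 bases in 16, while over all window borders of the reference the median was 141 bases and 52.1% lay within 150. In most touching pairs the reads of both windows thus carried the same number, and a fragment end lay near the border.

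Examples, chosen after their values were seen, are the borders within chr11:37876001-37880000 (1397 reads in PRE1 and 1225 in AD2, in both windows), chr11:93348001-93352000 in an intron of Car10 (2146 in PRE1 and 547 in PRE2) and chr15:43444001-43448000 in an intron of a noncoding RNA, Gm10373 (1633 in AD1 and 1871 in AD2). The 150 bases of the mm10 plus strand around each border are given to show the DpnII sites, in capitals.
chr11:37877926-37878075: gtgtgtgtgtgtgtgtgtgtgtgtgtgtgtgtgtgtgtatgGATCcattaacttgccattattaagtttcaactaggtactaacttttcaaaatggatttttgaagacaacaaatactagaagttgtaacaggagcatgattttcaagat
chr11:93349926-93350075: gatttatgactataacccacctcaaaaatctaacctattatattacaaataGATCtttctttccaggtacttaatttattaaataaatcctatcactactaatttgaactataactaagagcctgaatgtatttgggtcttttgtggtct
chr15:43445926-43446075: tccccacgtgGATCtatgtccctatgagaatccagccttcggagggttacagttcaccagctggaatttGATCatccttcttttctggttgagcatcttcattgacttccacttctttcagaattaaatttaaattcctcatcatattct

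The 4 remaining touching pairs differed more. The largest gap was on chromosome 17, where start 39844001 held 0, 466, 62 and 21 reads in PRE1, PRE2, AD1 and AD2 and start 39846001 held 28, 245, 0 and 1496. Both overlap the noncoding gene Gm26917, and the second also overlaps CT010467.1, annotated as ribosomal RNA. PRE2 was high in both windows, whereas AD2 was low in the first and highest in the second.

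Genes overlapped 220 of the 351 windows (62.7%, 95% Wilson interval 57.5% to 67.6%). The share was 58.2% in windows of 1 library and 50.5% in all windows of the reference on these chromosomes. Exons were reached in 95 windows (27.1%, against 24.6% and 18.6%), introns alone in 125, and 131 were intergenic. The start of a coding gene lay within 5 kb in 45 windows (12.8%, against 10.7% and 7.44%), and the median distance to such a start was 45374 bp against 47839 and 75452. Recurrent windows were thus richer in genes than the reference, and windows of 1 library, which the same assay picked, lay between, most of the way to them.

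The overlapped coding genes numbered 178, and 175 of them held a single stretch. The exceptions were Cwc22, Ube4b and Sox5, named after their counts were seen. In Sox5, which encodes a transcription factor of the SRY-box family, touching windows on chromosome 6 from start 144128001 held 261 reads in AD1 and 47 in AD2, and others from start 144528001 held 274 in PRE1 and 301 in AD1. AD1 was the library common to both places.

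Of 53 listed genes of adipogenesis, lipid metabolism, preadipocytes and cohesin on these chromosomes, 0 had a recurrent window within 50 kb, against 2.92% of 18784 coding genes. Windows of 1 library lay within 50 kb of 39 of the 53 (73.6%), against 62.3% of coding genes. These comprised 11 of 16 adipogenic transcription factors, among them Pparg with 2 such windows, 15 of 20 adipocyte lipid and hormone genes, 5 of 9 preadipocyte genes and 8 of 8 genes of cohesin and loop factors. Adiponectin (Adipoq) had 1 such window and Fabp4, the fatty acid carrier of adipocytes, had 0.

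Base composition differed little. The median GC content was 43.9% in recurrent windows, 43.1% in windows of 1 library and 41.5% in the reference. The median number of DpnII sites was 6, 5 and 5. Repeat-masked bases made up 24.5% of a recurrent window on average, 26.9% of a window of 1 library and 33.4% of a reference window, and at least 50% of the bases were masked in 5.98%, 9.91% and 18.4%. The windows of all 4 libraries stood apart here, since 3 of the 4 were masked to at least 50%.

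The sequence of the windows was then searched for the 3′ end of the reading primer, the primer at which sequencing of each ligation product starts. The primer ends in the DpnII site of the viewpoint, and the match was counted in unbroken bases from that end, on either strand. Both primers are given 5′ to 3′, with the DpnII site in capitals.
reading primer: atctggcccagagagcGATC
second primer: ggggttcgtgagaaatgtccc

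At least 10 bases of the reading primer's end were found in 15 recurrent windows (4.27%), in 58 windows of 1 library (0.401%) and in 0.0541% of reference windows. Of the 15, 14 were among the 110 windows with 13 reads or more in both AD1 and AD2 (12.7%), and 1 was among the other 241. In those 14, AD2 exceeded AD1 in 11 in unscaled reads, and in fewer relative to the listed reads of each library. PRE1 reached 13 reads in 0 of the 14 and PRE2 in 3. Of the 58 windows of 1 library, 40 were read in AD2, 12 in AD1, 6 in PRE2 and 0 in PRE1. The matched windows thus lay mostly in the 3T3-L1-AD libraries, and most of them in AD2 alone. The Sox5 window at start 144128001 was 1 of the 15, with 10 matching bases, and the window touching it held the same counts.

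Windows with long matches were more often read in 3T3-L1-AD than those without, although the share did not rise at every step. Among all reference windows with no match of 8 bases, 0.186% had 13 reads or more in AD2. This share was 1.06% at a match of 8 bases, 1.56% at 9, 7.29% at 10, 5.77% at 11 and 20.5% at 12, and it held 3 of 6 windows at 13, 4 of 4 at 14 and the 1 window at 15. In AD1 the share rose from 0.102% with no match to 2.51% at 10 bases, and it held 3 of 6 windows at 13, 4 of 4 at 14 and the 1 at 15. PRE1 reached 13 reads in 0 of the 609 windows with 10 bases or more, against 0.245% with no match. In PRE2 the share was 0.798% with no match, 1.26% at 10 bases, 0.641% at 11 and 0% at 12, and PRE2 read 1 of 6 windows at 13, 2 of 4 at 14 and the 1 at 15. The few longest matches were thus read in PRE2 as well.

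Of the 11 windows with a match of 13 bases or more, 7 were recurrent, and their sites are shown with the 40 reference bases that follow them so that the matches can be compared. The other 4, all with 13 bases, are not shown. Capitals mark the bases identical to the end of the primer. They are written 5′ to 3′ in the direction of the primer in mm10, on the plus strand for chromosomes 15, 6, 2, 3 and 4 and on the minus strand for chromosomes 16 and 9.
chr15:74426577-74426636: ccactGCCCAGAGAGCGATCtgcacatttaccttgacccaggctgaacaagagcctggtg
chr6:81930798-81930857: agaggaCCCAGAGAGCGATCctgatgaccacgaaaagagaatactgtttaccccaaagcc
chr2:120171367-120171426: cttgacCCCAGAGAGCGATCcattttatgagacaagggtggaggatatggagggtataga
chr3:110182319-110182378: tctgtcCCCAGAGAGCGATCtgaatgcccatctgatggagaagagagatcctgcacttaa
chr16:35365900-35365959: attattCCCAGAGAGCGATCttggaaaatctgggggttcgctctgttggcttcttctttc
chr9:80745422-80745481: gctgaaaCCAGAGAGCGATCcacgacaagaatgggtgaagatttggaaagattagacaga
chr4:149401973-149402032: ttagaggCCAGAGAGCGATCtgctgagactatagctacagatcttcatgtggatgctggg

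The first of these, with 15 bases, is the window nearest to Adgrb1 with 5865 reads in AD2, and the next is the Gcfc2 exon with 4232. An exon of Pla2g4e on chromosome 2 (start 120170001) held 0 reads in PRE1 and PRE2, 415 in AD1 and 2820 in AD2. The window nearest to Ntng1 held 2633 reads in AD2. A window 83 bp from Sec22a on chromosome 16 (start 35364001) held 0, 0, 57 and 1168 reads.

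With 13 matching bases, a window of chromosome 9 (start 80744001), 278520 bp from Impg1, the nearest coding gene, held 15 reads in AD1 and 469 in AD2, and an intron of Ube4b on chromosome 4 (start 149400001) held 22 and 25. AD2 was the higher library in all 7 sites in unscaled reads, but in Ube4b AD1 was the higher relative to the listed reads of each library. The windows with 14 or 15 bases were all above those with 13 in both libraries. Pla2g4e, Sec22a, Impg1 and Ube4b were named after their values were seen.

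A match of 12 bases or more to the end of the second primer was found in 6 recurrent windows (1.71%, against 0.194% of windows of 1 library and 0.0786% of the reference). The longest, of 15 bases, lies on chromosome 4 (start 81118001), 158500 bp from Mpdz, the nearest coding gene, with 51 reads in AD1 and 60 in AD2. The window nearest to Foxi3 that all 4 libraries read has 13. The first of these is shown on the minus strand of mm10, with matching bases in capitals.
chr4:81118660-81118720: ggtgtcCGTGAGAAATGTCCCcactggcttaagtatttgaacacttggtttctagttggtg

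One or the other match was present in 21 recurrent windows, 19 of them read by both 3T3-L1-AD libraries, and neither was present in 330. The 15 windows with the reading primer's end took 0% of the reads in recurrent windows in PRE1, 2.04% in PRE2, 1.60% in AD1 and 7.69% in AD2. Whether the primers annealed at these places, and their part in the sharing of windows, was not tested.

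The states were compared by edgeR's quasi-likelihood test over 2412 windows with 13 reads or more in at least 2 libraries, cis and trans, and its calls (FDR at most 0.01) numbered 3 (0.124%). Among the 351 recurrent trans windows 0 were called, with a smallest FDR of 0.0661. At an unadjusted p under 0.05 there were 151 (43.0%, against 38.4% of all windows tested), 85 higher and 66 lower in 3T3-L1-AD. DESeq2 called 171 of the 351 at the same FDR, 94 of them higher in 3T3-L1-AD, and 50.5% of all windows. Because the rule used the same counts, a window shared by the replicates of a state alone had to separate the states: 146 of the 151 and 164 of the 171 were of that kind. The count of 151 did not hold when any library was left out: it was 2 without PRE1, 3 without PRE2, 37 without AD1 and 16 without AD2. With listed read totals alone as the scaling it was 2.

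The smallest p among higher windows was that of chr16:30604001-30606000, between genes and 1204 bp from Fam43a, with 0, 16, 0 and 19574 reads in PRE1, PRE2, AD1 and AD2 (log2 fold change 11.45 with a standard error of 3.43, edgeR FDR 0.0661). AD1 listed no read there, so the states overlapped and a single library carried the difference. The same held for chr8:118054001-118056000, 227733 bp from the nearest coding gene, the cadherin gene Cdh13, with 0, 13, 0 and 19052 reads (edgeR FDR 0.0661).

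Among lower windows, the Cwc22 window at 77932001 ranked first (edgeR FDR 0.0661), with the 36 and 52 reads of PRE1 and PRE2 given above and 0 in either 3T3-L1-AD library. It was followed by chr16:30806001-30808000 147144 bp from Xxylt1, the nearest coding gene, with 25 reads in PRE1, 68 in PRE2 and 0 in AD1 and AD2 (edgeR FDR 0.0661). The states did not overlap in either, as the rule requires of such pairs, and both failed the FDR threshold.

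The deposited q-values, computed for each library alone, were at most 0.05 in 1 recurrent window in PRE1, 0 in PRE2, 4 in AD1 and 4 in AD2. Over all trans windows of the same chromosomes, here with the block of chromosome 10 included, the numbers were 4, 0, 22 and 56.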

How the data were processed

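The 4C-seq libraries with the Cebpa promoter as viewpoint were grouped by their labels, 2 as 3T3-L1-PRE by cell type and 2 as 3T3-L1-AD by title. The inguinal white adipose tissue sample was not analysed here. The authors demultiplexed reads by the reading primer, trimmed it, mapped them to mm10 with bowtie2 in pipe4C and discarded fragment ends that were not unique. The read count of each 2000-bp window was deposited by the authors from r3Cseq without normalization. The deposited signal named RPMs, normalized by the authors per library, was used only to see that windows with values above 1 are listed. The deposited p-value and q-value come from r3Cseq run by the authors on each library alone. Per the study's methods, reads were paired and 150 bp long.

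Windows absent from a library's list were set to 0 reads. The minimum was 13 reads in at least 2 libraries. The members and gene lists were chosen with earlier results of these data known. Genes, repeat masking, enzyme sites and primer matches (unbroken from the 3′ end, 8 bases or more) were read from the reference of the same build, and reference windows with unknown bases were left out. The primer sequences are those listed in the study's supplement. Shares have Wilson intervals at 95%. An exact permutation test planned for the share of trans reads is not reported, since the rule used the same reads. The edgeR quasi-likelihood test used TMM normalization, with calls at an FDR of at most 0.01. Its common dispersion was 4.28.

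Windows named in the text were those in 3 or 4 libraries, up to 15 by the lowest of their 3 highest counts; for each pair of libraries the 2 with the highest lower count; the stretches within 10 kb with most windows; and the 2 with the smallest p in each direction. Recurrent windows within 50 kb of a listed gene were to be named too. Beyond the longest stretch, 21 stretches tied, so the example pairs were chosen after their values were seen, as were Stx16 and Aptx. Windows of chromosome 18 were counted but not named, and 1 window that the rule names is not reported here.

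Alternatives were other minimums, a minimum scaled to depth, all listed reads as the denominator, equal numbers of windows, other normalizations, DESeq2, other tested windows, a replicate block, other gaps, coding genes alone and each library left out. Leaving a library out of both the choice of windows and the mean share was added after the data were seen. Fits were run in R 4.3.3 using edgeR 4.0.16 and DESeq2 1.42.0, and the rest in Python 3.11.15 using scipy 1.17.1, pandas 2.3.3 and numpy 2.4.6.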

Additional observations from a re-analysis of the deposited data

Results flagged for a closer look

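Chromosome X was outside the selection and was read in the same way. On it 4 windows held 13 reads or more in at least 2 libraries, and they stand here because the description of recurrent windows does not use that chromosome. They entered the edgeR fit over all windows. A further 442 windows reached 13 reads in 1 library, so recurrent windows were 0.897% of those with 13 reads or more (95% Wilson interval 0.349% to 2.28%), against 2.37% on the other chromosomes considered. The window at start 8144001 held 41 and 60 reads in PRE1 and PRE2, that at 97502001 held 823 and 19, and that at 102122001 held 1348 and 503, with 0 in 3T3-L1-AD. The window at 47554001 held 52 reads in PRE1 and 121 in AD1. The 3T3-L1-PRE replicates thus shared 3 of them, and AD1 and AD2 shared none. The cause was not tested.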

How the results depend on the processing

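Of 49 alternatives over 6 results, 36 stayed within their limits, 12 moved and 1 reversed. Unless stated, the cause was not tested. The 351 recurrent windows became 210 at a minimum of 50 reads and 169 at 100, 130 with the 1195 windows of most reads from each library, and 173 to 213 without a library. At a minimum of 25 reads there were 278, with the minimum scaled to depth 305 and without windows masked to at least 50% 330. The 330 stretches became 196 at 50 reads and 158 at 100. The difference in the share of trans reads ranged from 2.72 to 10.3 percentage points with a library left out of both the windows and the means. It was -0.238 when AD1 was left out of the choice of windows but kept in the mean, which lowers the share of AD1 by construction. Over all listed reads it was 2.17, and the states did not overlap. The share overlapping a gene was 53.8% with coding genes alone. The masked share stayed between 24.5% and 25.4%.

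Windows that differed between the states numbered 0 with edgeR in all alternatives but 1, where the windows tested were those listed in both replicates of either state. It then called 48 of the 200 recurrent windows tested, and 274 of all 1998 windows tested, which that choice of windows favours. DESeq2 called 171. The count at an unadjusted p under 0.05 was 151 with edgeR, and over its alternatives it ranged from 2, with listed read totals, to 168 of the 200. Over all windows tested it was 926 of 2412 in the main fit and 4 with listed read totals. It was 1278 of 1998 where 200 recurrent windows were tested. The count among recurrent windows fell when any library was left out, where 1 library remained in a state and the other state alone gave the spread. With DESeq2 it was 188. The replicate numbers are shared by the states in the labels alone, and deviations of libraries with the same number had a correlation of 0.0615. With a replicate block, edgeR called 0 recurrent windows, with 2 at an unadjusted p under 0.05, so the block changed no call among them. Over all windows tested it called 7, against 3 without the block. At an unadjusted p under 0.05 there were 28 of all windows with the block and 926 without it.

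The files list no count under 13 reads in PRE1 or under 11 in PRE2, so weaker sharing was not detectable there. This listing minimum did not follow depth, since PRE1 has fewer listed reads than AD2, which lists counts down to 2. Unequal window lists, from 1195 to 9022, bound every overlap, and windows do not resolve fragment ends.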
